A study of Mus musculus with 8 samples.

Results

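The genes described here encode the phagocyte NADPH oxidase, the enzyme with which neutrophils and monocytes make superoxide. They were chosen by symbol from the deposited gene table, and all 5 members (Cybb, Cyba, Ncf1, Ncf4 and Rac2) were found, among 23084 genes listed. The samples were CD11b+Ly6C+ monocytic and CD11b+Ly6G+ granulocytic cells sorted from spleens of C57BL/6 mice that were 6 to 8 weeks old, either wt or LmnaMyeKO. In LmnaMyeKO mice, floxed Lmna, the gene of lamin A/C, is deleted by LysM-Cre, which is driven from the Lyz2 locus and acts in monocytes, macrophages and neutrophils. Each of the 4 groups held 2 samples, 8 in all. Titles gave the subset of each sample, since the cell marker label read CD11b+Ly6C+ for the CD11b+Ly6G+ samples too. Whether wt mice carried LysM-Cre or the floxed allele, and whether the mice bore tumors, is not stated in the labels.

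The value available for each gene was 1 mean by the authors, of read counts divided by size factors, with no value per sample. The remaining values of the table are the authors' own comparison of wt with LmnaMyeKO and were not used here, so no difference between genotypes or subsets is described. Which samples entered the mean is not stated. The levels below therefore carry no SD and no n, the table gives no depth per sample, and no test was run on them. In bulk RNA, fewer cells of a type and less RNA per cell cannot be told apart.

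The oxidase is dormant until its parts meet at a membrane. Cybb (gp91phox) is the membrane subunit that carries electrons from NADPH to oxygen, and Cyba (p22phox) is its partner in flavocytochrome b558. On stimulation, the cytosolic organizer Ncf1 (p47phox) and Ncf4 (p40phox), which binds phosphatidylinositol 3-phosphate, move to this pair together with GTP-bound Rac2, the Rac GTPase of blood cells. Loss of Cybb, Cyba, Ncf1 or Ncf4 causes forms of chronic granulomatous disease, in which the killing of some ingested bacteria and fungi is impaired.

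Promoter sequences are shown first because PU.1 and interferon regulatory factors are known to act at oxidase genes. The RefSeq promoter table (GRCm38.p6) held a window of 250 bases before to 50 bases after the start for 3 of the 5 members, Cybb, Cyba and Ncf1. Ncf4 and Rac2 were not matched there. All 3 windows are on the minus strand of their chromosomes and are written here 5′ to 3′. Capitals mark matches, on either strand, to GAGGAA (PU.1), AANNGAAA (the core of interferon regulatory factor sites), TTGCNNAA (C/EBP), CCAAT or TATAAA.
Cybb, chrX:9469275-9469574: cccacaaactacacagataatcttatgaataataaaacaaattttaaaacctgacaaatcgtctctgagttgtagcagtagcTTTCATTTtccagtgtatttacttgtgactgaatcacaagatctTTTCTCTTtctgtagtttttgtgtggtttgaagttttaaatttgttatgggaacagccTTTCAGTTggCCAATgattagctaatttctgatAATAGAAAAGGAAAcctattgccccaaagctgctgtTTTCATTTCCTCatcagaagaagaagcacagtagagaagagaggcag
Cyba, chr8:122432891-122433190: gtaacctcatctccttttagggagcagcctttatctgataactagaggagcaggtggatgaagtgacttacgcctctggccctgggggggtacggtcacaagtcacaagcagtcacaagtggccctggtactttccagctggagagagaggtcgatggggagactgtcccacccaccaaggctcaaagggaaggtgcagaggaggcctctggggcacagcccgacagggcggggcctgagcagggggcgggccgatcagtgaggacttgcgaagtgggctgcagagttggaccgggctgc
Ncf1, chr5:134229576-134229875: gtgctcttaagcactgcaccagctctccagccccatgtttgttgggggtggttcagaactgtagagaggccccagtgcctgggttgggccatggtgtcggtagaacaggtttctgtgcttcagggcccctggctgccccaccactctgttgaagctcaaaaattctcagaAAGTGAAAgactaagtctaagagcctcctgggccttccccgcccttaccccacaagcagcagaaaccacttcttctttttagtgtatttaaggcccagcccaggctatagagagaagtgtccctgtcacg

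The Cybb window was rich in A and T, with 35.3% G and C, against a median of 52.7% over all 32851 windows of the table. It held 6 matches to the interferon regulatory factor core. Of these, 3 on the reverse strand began 168, 124 and 66 bases before the start, and 2 on the forward strand, which overlap each other, began 33 and 27 bases before it. The remaining one began 3 bases past the start on the reverse strand and overlapped the only PU.1 match, which began 9 bases past the start. A CCAAT box lay 56 bases before the start. Ncf1 had 1 match to the interferon regulatory factor core, 80 bases before the start on the forward strand, in a window with 54.0% G and C. Cyba had no match to any of the 5 motifs, and its window was 60.7% G and C. None of the 3 windows held TTGCNNAA or TATAAA. Of all windows in the table, 28.3% held GAGGAA, 23.9% AANNGAAA, 10.8% TTGCNNAA, 37.4% CCAAT and 13.6% TATAAA, so single matches are common. These are matches of letters, and no binding was measured.

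**Figure D1:**
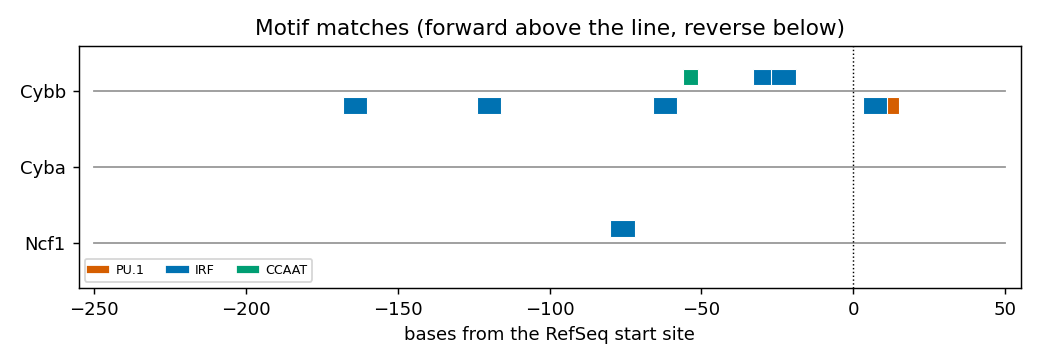
Motif matches in the promoter windows of Cybb, Cyba and Ncf1. The x axis is the distance in bases from the RefSeq start site (dotted line), boxes above a line are matches on the forward strand and boxes below it on the reverse strand, and colors stand for the motif. Of the 8 boxes at Cybb, 6 are matches to the interferon regulatory factor core, while Cyba has no box and Ncf1 has 1.

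All 5 members were among the most abundant transcripts of the table. The authors' mean was 41443 normalized counts for Rac2, 36238 for Cybb, 34616 for Ncf1, 11147 for Cyba and 7964 for Ncf4. Together they made up 0.521% of the signal summed over all genes. These counts grow with transcript length, so levels were compared between genes after division by the length of their exons, taken as the union over transcripts in GENCODE M21 and given in kb.

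On this scale Rac2 had the highest level of the 5, with 13356 normalized counts per kb, and it ranked 64th of 23004 genes with an annotated length. Cyba followed with 10728 per kb (rank 86) and Ncf1 with 9450 per kb (rank 103). Cybb, the catalytic subunit, had 6239 per kb (rank 169). Ncf4 was lowest, with 3943 per kb (rank 280). Each member was thus above 98.8% of genes or more. The median over all 23004 genes was 18.9 per kb, and the 5 members lay within 3.39-fold of each other. For the plot against all genes, the levels were taken to a log10 scale.

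**Figure D2:**
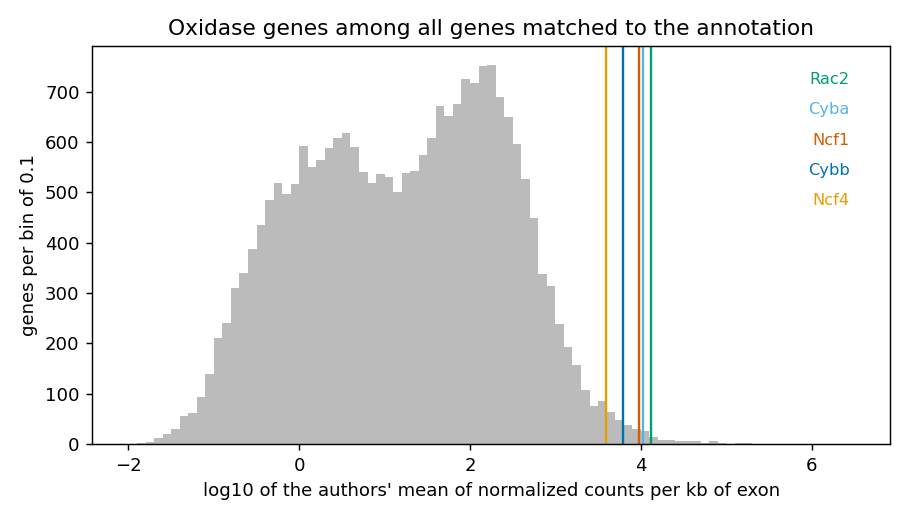
Levels of the oxidase genes among all genes. The x axis is the log10 of the authors' mean of normalized counts per kb of exon, grey bars count the 23004 genes in bins of 0.1, and each colored line is 1 member. All 5 lines stand in the right tail, from Ncf4 at 3943 per kb to Rac2 at 13356 per kb.

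The order within the enzyme depended in part on how length was defined. Of the 10 pairs of members, 7 kept their order when the longest transcript or the longest coding sequence replaced the union of exons, and 3 did not. The 3 pairs were those of Cyba with Cybb, Ncf1 and Rac2. For the flavocytochrome pair, the level of Cybb was 0.582 times that of Cyba per kb of exon, 0.509 times per kb of longest transcript and 1.1 times per kb of coding sequence. Their order is therefore not settled by these data. Cyba has the shortest exons of the 5, 1039 bases in all, of which 576 are coding, while Cybb has 5808 bases of exon and a coding sequence of 1710 bases.

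Rac2 was above Cybb, Ncf1 and Ncf4 under each of the 3 lengths, and Ncf4 was lowest under each. The organizer Ncf1 was 2.4 times as high as Ncf4 per kb of exon, 2.21 times per kb of longest transcript and 3.65 times per kb of coding sequence. The level of Rac2 was 13642 per kb of longest transcript, which is 3038 bases, and 71949 per kb of coding sequence, which is 576 bases. The range over the 5 members was 2.75-fold per kb of longest transcript and 9.19-fold per kb of coding sequence. With a single mean per gene, none of these differences can be set against a spread between samples.

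**Figure D3:**
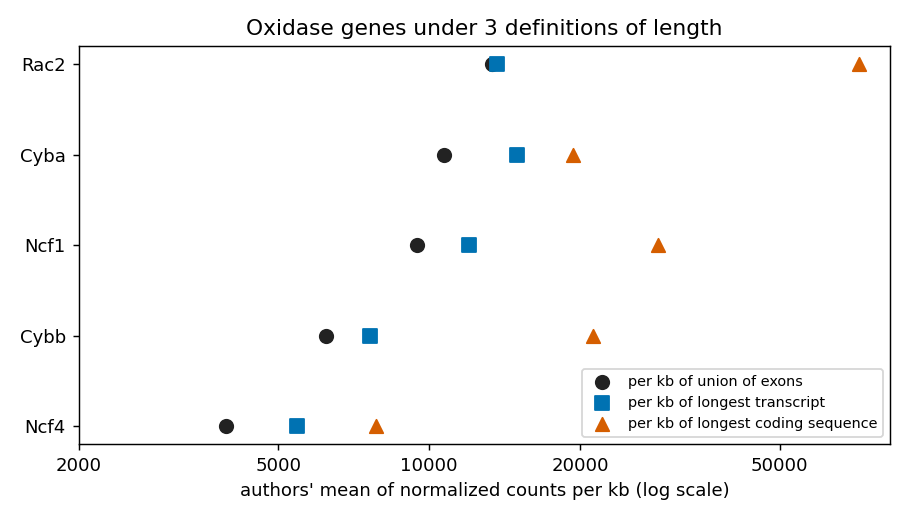
Levels of the oxidase genes under 3 definitions of length. The x axis is the authors' mean of normalized counts per kb on a log scale, rows are genes, and circles, squares and triangles divide by the union of exons, the longest transcript and the longest coding sequence. Rac2 reaches 71949 per kb of coding sequence, Ncf4 is the lowest member in all 3, and Cyba changes places with Cybb, Ncf1 and Rac2.

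The 5 genes lie on 4 chromosomes of mm10 and are all annotated as protein coding. Cybb (ENSMUSG00000015340) spans chrX:9435252-9487771 on the minus strand, Cyba (ENSMUSG00000006519) chr8:122424776-122432930 on the minus strand and Ncf1 (ENSMUSG00000015950) chr5:134220053-134229625 on the minus strand. The start used for the promoter window of Cybb, at 9469324, lies within its span. A GENCODE transcript starts there too, and sequence before the farther annotated start at 9487771 was not searched for motifs. Ncf4 (ENSMUSG00000071715), at chr15:78244801-78262580 on the plus strand, and Rac2 (ENSMUSG00000033220), at chr15:78559167-78572783 on the minus strand, share chromosome 15 and are 297 kb apart. The transcripts with the longest coding sequence have 13 exons for Cybb, 6 for Cyba, 11 for Ncf1, 10 for Ncf4 and 7 for Rac2. They code for 570, 192, 404, 339 and 192 residues, in the same order.

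Coding sequences of the members were searched for stretches shared with other genes, which could claim their reads. Exon sequence outside the coding part was not searched in this way. The coding sequences of 4 members, Cybb, Cyba, Ncf4 and Rac2, had no ungapped match of at least 90% identity over 100 bases in the transcripts of another gene. Ncf1 had one, to Gtf2ird2, a gene on the opposite strand, with 100% identity over 179 bases. The exons of these 2 genes overlap at the same place in the genome by 408 bases, which is 11.1% of the exon length of Ncf1, and 311 of these bases are in its coding sequence. The authors' mean was 882 normalized counts for Gtf2ird2, not divided by length, and 34616 for Ncf1. Whether the counting used strand is not stated, so reads from the shared stretch cannot be told apart. For Rac2, the longest matches were to its paralogs Rac3, at 83.8% identity over 538 bases, and Rac1, at 79.7% over 536 bases. Shorter ones were to Rhog, another GTPase gene, at 78.3% over 249 bases, and to the pseudogenes Gm13432, at 75.6% over 156 bases, and Gm12692, at 83.5% over 103 bases.

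Genes of the related lists covered a far wider range per kb of exon than the 5 members. That width depends on which genes were put on the lists. Of 7 genes for other NADPH oxidases and their organizers, which serve mainly in other tissues, 4 were listed, and all 4 were under 10 normalized counts per kb. The highest was Noxo1, the colon counterpart of Ncf1, with 4.78 per kb, and the lowest was Duox1, a thyroid and airway oxidase, with 0.0603 per kb. Nox1 had 1.07 per kb and Noxa1 0.414 per kb. Nox3, Nox4 and Duox2 were not in the list of genes. The lowest of the 5 members was thus far above the highest of these.

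Of 8 Rac relatives and regulators, 6 were above 1000 per kb. Arhgdib, the GDP dissociation inhibitor that holds Rac2 inactive in blood cells, had 21792 per kb of exon. On this scale it was the only gene of the lists of related genes above Rac2. Per kb of longest transcript Arhgdib stayed above Rac2 (31180 against 13642), but per kb of coding sequence it was below (61997 against 71949). Arhgdia, the widely expressed relative of Arhgdib, had 4384 per kb of exon. Rac2 itself was 8.3 times as high as Rac1, the ubiquitous family member with 1610 per kb, and this ratio was 7.84 per kb of longest transcript and 6.29 per kb of coding sequence. Rac3, mostly a neuronal form, had 8.81 per kb. Vav3, an exchange factor that loads Rac with GTP, had 317 per kb. The median of the list was 1465 per kb.

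The 6 kinases of the list ran from 188 per kb for Pik3c3, which makes the lipid that Ncf4 binds, to 2237 per kb for Prkcd, one of the protein kinases C that phosphorylate Ncf1. The median of these kinases was 689 per kb. Cybc1, a chaperone needed for the Cybb protein, had 882 per kb, and Hvcn1, the proton channel that balances the charge moved by the oxidase, had 1260 per kb. Each of these genes was below the lowest oxidase member.

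Enzymes that use or remove the products of the oxidase were uneven. Gpx1, a glutathione peroxidase that removes hydrogen peroxide, had 10704 per kb of exon, beside 10728 for Cyba. Per kb of coding sequence Gpx1 was above Cyba (25579 against 19352). Mpo, the myeloperoxidase of azurophil granules, had 1190 per kb of exon, and the superoxide dismutases Sod1 and Sod2 had 398 and 73.7 per kb of exon. Among factors known at myeloid promoters, Spi1, which encodes PU.1, had 4622 per kb of exon, Cebpe 1952, Irf1 1762 and Irf8 489.

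**Figure D4:**
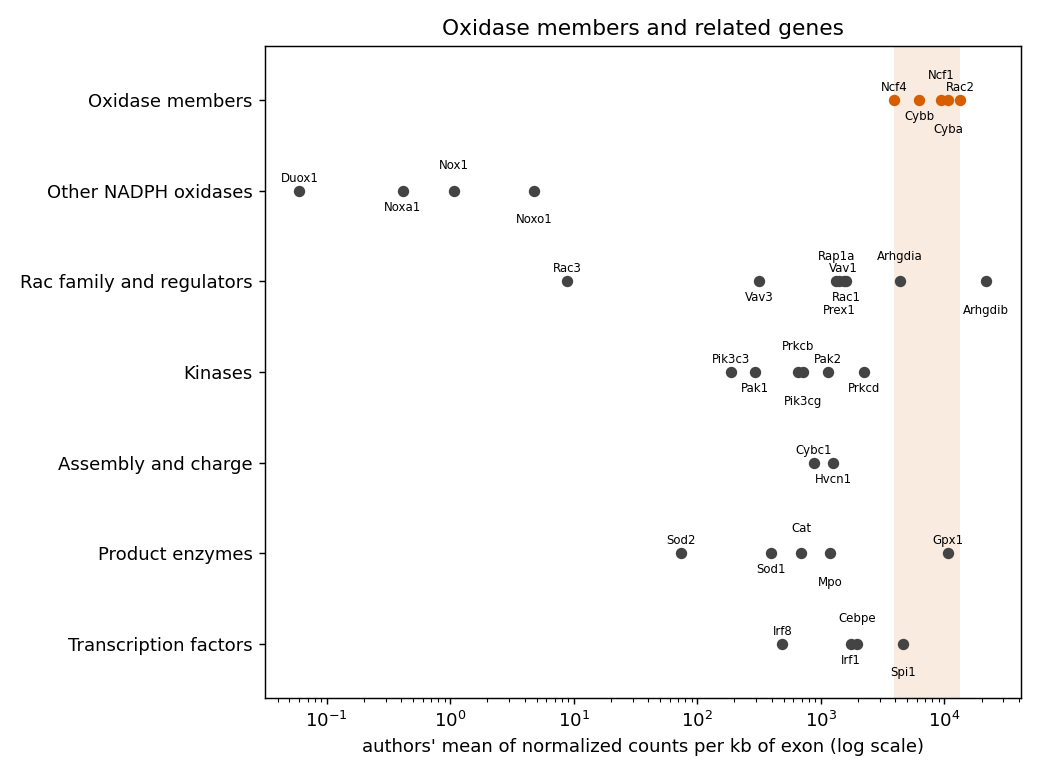
Levels of the oxidase members and of related genes by list. The x axis is the authors' mean of normalized counts per kb of exon on a log scale, each point is 1 listed gene, and the shaded band is the range of the 5 members, from 3943 to 13356 per kb. Arhgdib lies above the band, Arhgdia, Gpx1 and Spi1 lie within it, and the 4 other oxidase genes lie under 10 per kb.

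The labelled cell types were set beside marker genes on the same scale. Markers of every cell type searched were listed, so being listed does not check a label. In the monocyte list, Ly6c2 was at 5260, Csf1r at 3838, Ccr2 at 370 and Cx3cr1 at 157 per kb. Ccr2 and Cx3cr1 were thus below Nkg7, a marker of the T and NK cell list. Itgam (CD11b), by which both subsets were sorted and which does not separate them, was at 10760 per kb. All 7 neutrophil markers were above the lowest oxidase member and 5 were above the highest, from Ly6g at 8337 to S100a9 at 1389954 per kb. Macrophage markers ran from 2357 per kb for Vcam1 to 9704 per kb for C1qb, and B-cell markers from 822 per kb for Ms4a1 to 4065 per kb for Cd79a. The T and NK cell markers did not exceed 519 per kb (Nkg7). Of the erythroid genes, Hbb-bs had 11172 per kb, and the platelet genes Pf4 and Ppbp were at 54.4 and 101 per kb. Neutrophils, macrophages and B cells also express oxidase genes, and their part in the levels above was not tested. The mean does not show whether CD11b+Ly6G+ samples were averaged with CD11b+Ly6C+ samples. The targeted gene Lmna had a mean of 79.5 normalized counts, or 13.6 per kb, above 46.7% of genes, and a mean over samples does not check the genotype labels.

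**Figure D5:**
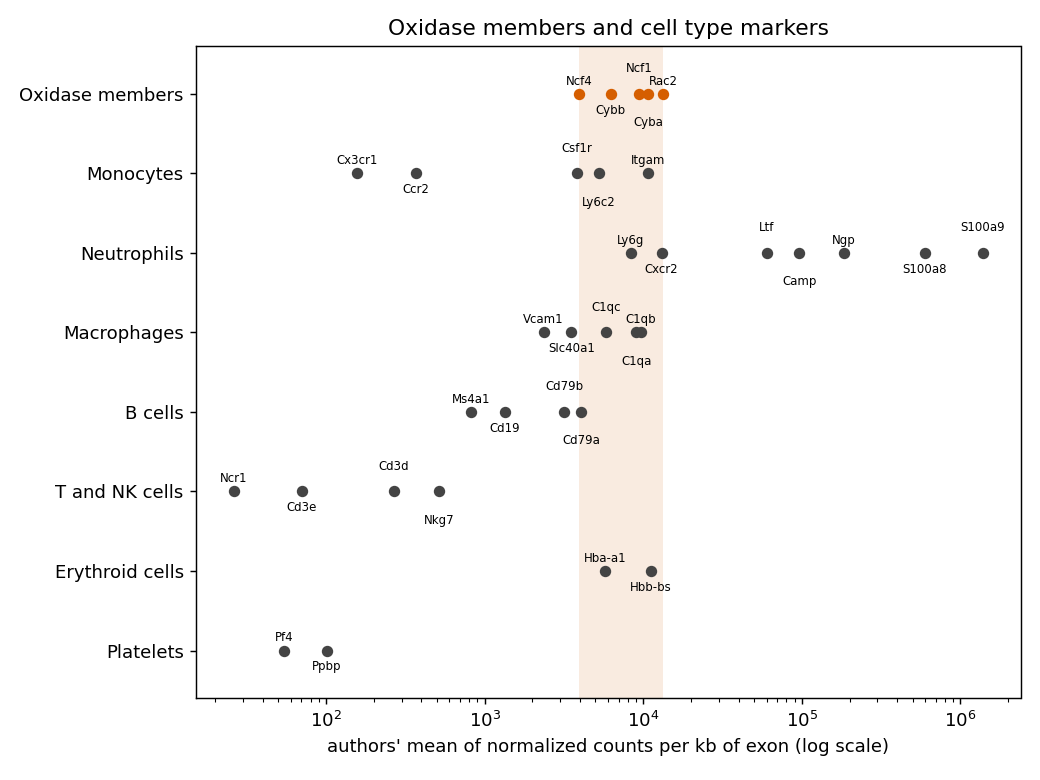
Levels of the oxidase members and of cell type markers. The x axis is the authors' mean of normalized counts per kb of exon on a log scale, each point is 1 gene, and the shaded band is the range of the 5 members. Neutrophil markers reach 1389954 per kb (S100a9), and T and NK cell and platelet markers stay at or below 519 per kb. Some macrophage, monocyte and neutrophil markers lie within the band. So do the B-cell marker Cd79a (4065 per kb) and the erythroid genes Hba-a1 (5741 per kb) and Hbb-bs (11172 per kb).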

How the data were processed

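RNA-seq data of 8 samples in 4 groups were used as the authors' table of 1 comparison. Per the labels and the methods, the authors trimmed reads with Cutadapt (version 1.14), aligned them to mm10 with STAR (version 2.5.2b), quantified genes with RSEM (version 1.3.0) and GENCODE annotation M12, and compared groups with DESeq2 (version 1.20.0). The deposited signal used here is their mean of normalized counts per gene; the averaged samples are not stated, and the table gives no depth per sample. The other 6 value columns hold their fold changes, standard errors, test statistics and p-values for wt against LmnaMyeKO cells and were not used; the table does not spell out the subset compared. No values per sample were analysed, so the planned count test, its alternatives and the choice of genes with a like pattern were not run.

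Of 23084 gene identifiers, 23004 matched GENCODE M21 (same genome build, later release), which gave positions and exon lengths. A symbol was repeated in 28 cases, and a named gene then took its most abundant entry. Levels were divided by exon length and ranked. The lengths and the genes ranked were varied as given in the closing section. Coding sequences were searched against all M21 transcripts with blastn (version 2.17.0), keeping matches from 75% identity over 100 bases, and again without gaps from 90%. Promoter windows were RefSeq's. Python (version 3.11.15), pandas (version 2.3.3) and numpy (version 2.4.6) were used, and the length, motif and rank steps were tested on simulated data. Genes named are the 5 members, Lmna, marker genes and, of each related list, at most 4 with the highest and lowest level; Rac1, Gtf2ird2, Rhog, the pseudogenes and the genes between Ncf4 and Rac2 were named after their values were seen. Members and lists were chosen with earlier results of these data known. Values of some genes are not reported here.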

Additional observations from a re-analysis of the deposited data

How the results depend on the processing

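No paired analysis was possible because only 1 mean per gene was used. Without values for each sample, other count tests, other filters of counts and fits without single replicates were not run, and the error of every level is unknown. The median over the 5 members of the share of genes with a lower level was 99.55% per kb of exon. It was 99.53% with the longest transcript as the length, 99.1% with the longest coding sequence (16066 genes), 99.41% among the 15697 protein-coding genes, 99.28% among the 14286 genes with a mean of at least 10, and 99.72% without division by length. Fewer genes were ranked in the second to the fourth of these alternatives. Over all members and settings, 30 values in all, the share ran from 96.99% (Ncf4 per kb of coding sequence) to 99.84% (Rac2 per kb of coding sequence).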

Other observations

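Ncf4 and Rac2 face each other on chromosome 15 with 10 protein-coding genes in the 297 kb between them, of which 9 were listed. None of the 9 reached the level of Ncf4. The highest was Csf2rb, the common beta chain of the receptors for GM-CSF, IL-3 and IL-5, with 2036 normalized counts per kb of exon. Csf2rb2, the IL-3-specific chain of mice, had 342 per kb, Il2rb, a chain of the IL-2 and IL-15 receptors, had 173 per kb, and Tmprss6, a protease of liver, had 0.17 per kb.

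The 6 matches of the Cybb promoter window to the interferon regulatory factor core were counted again in all windows, after they had been seen. Of 32851 windows, 4 held at least as many (0.0122%), Cybb included. The window is rich in A and T, as is the motif, and the part of base composition in this count was not tested.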
